A study of Mus musculus with 29 samples.

Results

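Genes of urothelium and related epithelia were measured in tertiary lymphoid structures (TLS) dissected from the kidneys of lupus-prone mice. They were Upk1b, Upk2, Upk3a, Krt5, Krt15, Psca, Plet1, Sprr2a2, Vsig2 and Ly6d, 10 of the 13982 genes of the expression table. They had been picked by their values, as urothelial or epithelial genes high in TLS and at the floor in lymph node, so their levels and their differences between tissues are given here as a description, with no test. For 9 of them the values were as the rule says, apart from 4 reads of Psca in 1 lymph node. Ly6d was not at the floor in lymph node and is described separately below.

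The 14 libraries were of poly(A) RNA from (NZBxNZW)F1 mice, called NZB/W, a cross that develops a lupus-like nephritis with age, and no engineered allele is given for them. From proteinuric mice there were 4 kidney, 3 TLS and 3 lymph node libraries. TLS were cut out by hand under a loupe, with the kidney tissue taken from the same organ, so a TLS sample can hold whatever tissue adjoined it. Mouse 6 was 39 and mouse 20 was 36 weeks old, and the others, called by their age, were 32 and 25 weeks old. TLS of the mouse aged 32 weeks and lymph node of the mouse aged 25 weeks were not among the libraries. Further lymph nodes came from 3 antibody-positive mice aged 28, 29 and 18 weeks and from 1 mouse labelled young, aged 4 weeks. The antibody-positive lymph nodes were extracted with miRNeasy, the samples of proteinuric mice with TRIzol. No treatment is given for any of them.

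Urothelium is the layered epithelium that lines the renal pelvis, ureter and bladder. Its umbrella cells, which face the urine, carry plaques of uroplakins, membrane proteins that make the surface impermeable, and its basal cells rest on the basement membrane and contain keratins such as Krt5. In the kidney it is confined to the pelvis. The study places TLS of these mice near the pelvic wall and large vessels, and in some mice in perirenal fat. Smaller TLS were seen in the cortex of proteinuric mice. Which of these sites the dissected TLS came from is not stated.

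The libraries held between 343825 and 443379 reads (median 387398), and between 167440 and 405739 outside ribosomal RNA genes. The lowest of these was the kidney library of the mouse aged 32 weeks, with 55.6% of its reads on ribosomal RNA. Levels are given as normalized reads, the reads of a gene divided by the DESeq size factor of its library. The floor was set at 3 reads, which in the single libraries equal 2.36 to 5.32 normalized reads. B-cell and T-cell markers were present in all 3 TLS libraries, as the label requires (5 of 5 genes of each list in each library).

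On GRCm38, the uroplakin genes were Upk1b (chr16:38773184-38800328, minus strand), Upk2 (chr9:44452715-44454976, minus) and Upk3a (chr15:85017141-85022547, plus). The keratin genes were Krt5 (chr15:101707070-101712898, minus) and Krt15 (chr11:100131758-100135928, minus). Psca (chr15:74714839-74717069, plus) and Ly6d (chr15:74762056-74763620, minus) lay in the same stretch of chromosome 15, among genes of the Ly6 family. The others were Plet1 (chr9:50494525-50505482, plus), Vsig2 (chr9:37539255-37544205, plus) and Sprr2a2 (chr3:92215920-92256724, plus), whose annotation overlaps that of Sprr2a1 (chr3:92215799-92221911, plus).

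A RefSeq sequence of the region before the start site (GRCm38.p6) was at hand for 4 of the 10 genes. 3 groups of letters known from epithelial promoters were searched on both strands in the 250 bases before the start. They were TATAAA (the TATA box), TGANTCA (bound by AP-1) and AGATAA (bound by GATA factors). Of all 32851 promoters of the same length, 12.4% held TATAAA, 6.75% TGANTCA and 9.99% AGATAA. The sequences of 3 members are shown 5′ to 3′, with matches in capitals. They were the umbrella-cell gene Upk3a (chr15:85016891-85017140, plus), the basal-cell gene Krt5 (chr15:101712906-101713155, minus) and Plet1 (chr9:50494275-50494524, plus). Plet1 was the only member whose TLS libraries stood in another order, as given below.
Upk3a: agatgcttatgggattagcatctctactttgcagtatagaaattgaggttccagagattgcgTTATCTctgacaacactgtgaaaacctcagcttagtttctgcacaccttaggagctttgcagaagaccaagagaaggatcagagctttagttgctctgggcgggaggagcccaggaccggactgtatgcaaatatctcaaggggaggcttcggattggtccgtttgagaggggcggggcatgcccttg
Krt5: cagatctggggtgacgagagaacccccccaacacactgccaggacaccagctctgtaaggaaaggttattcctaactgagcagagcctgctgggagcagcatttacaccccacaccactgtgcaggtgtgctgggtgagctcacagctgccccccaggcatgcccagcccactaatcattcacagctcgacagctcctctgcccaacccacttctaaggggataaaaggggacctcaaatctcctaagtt
Plet1: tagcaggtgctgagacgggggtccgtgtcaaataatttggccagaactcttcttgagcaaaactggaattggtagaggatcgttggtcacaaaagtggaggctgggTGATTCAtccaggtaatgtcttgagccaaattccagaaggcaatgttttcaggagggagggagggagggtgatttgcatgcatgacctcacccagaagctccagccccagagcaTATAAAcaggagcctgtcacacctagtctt
The Upk3a sequence held AGATAA on the antisense strand, 188 to 183 bases before the start. The Plet1 sequence held TATAAA 30 to 25 bases and TGANTCA 144 to 138 bases before the start. None of the letters searched was in the Krt5 window. The 3 windows therefore had no searched letters in common.

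The uroplakins were present in every TLS library, at or under a few reads in kidney and without a read in lymph node. Upk3a, a uroplakin of the umbrella-cell plaque, had 134, 42.4 and 282 normalized reads in the TLS of mouse 6, mouse 20 and the mouse aged 25 weeks. In kidney it had 4.42, 4.22, 0 and 6.95 in mouse 6, mouse 20 and the mice aged 32 and 25 weeks, and it had no read in the 7 lymph node libraries. All 3 TLS libraries lay above all 4 kidney libraries, and the mean of TLS (153 ± 121, SD, n = 3) was 39.2-fold that of kidney (3.90 ± 2.88, n = 4). In tissue of the same mouse, Upk3a was 30.3-fold higher in TLS than in kidney in mouse 6, 10.1-fold in mouse 20 and 40.6-fold in the mouse aged 25 weeks. Against lymph node of proteinuric mice the mean was at least 35.2-fold higher, taking the floor of 3 reads in the one with the smallest size factor, mouse 6.

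Upk1b, the tetraspanin that pairs with Upk3a in the plaque, had 18.6, 11 and 57.8 normalized reads in the TLS of mouse 6, mouse 20 and the mouse aged 25 weeks. Upk2, which pairs with the tetraspanin Upk1a, had 18.6, 7.86 and 32.7. In kidney Upk1b had 1 read in 1 library, and Upk2 1 read in each of 2 libraries. The groups did not overlap for either gene, and the mean of TLS was at least 5.47-fold higher than kidney for Upk1b and at least 3.71-fold for Upk2. Reads of the bulk tissue cannot tell apart fewer cells of a type and less RNA per cell, here or for any gene below.

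The basal keratins showed the same order of libraries. Krt5 had 79.7, 19.6 and 156 normalized reads in the TLS of mouse 6, mouse 20 and the mouse aged 25 weeks, and 4.42, 1.69, 0 and 0 in kidney of mouse 6, mouse 20 and the mice aged 32 and 25 weeks. Krt15, a keratin of basal cells with progenitor properties in several epithelia, had 57.7, 13.4 and 141 in TLS and 3.54, 0, 0 and 1.16 in kidney. Neither had a read in any lymph node library. The mean of TLS was 55.7-fold that of kidney for Krt5 and 60.1-fold for Krt15, on 7 and 5 kidney reads, and the groups did not overlap.

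The surface proteins Psca and Plet1 were the members with most reads in kidney apart from TLS. Psca, a small lipid-anchored protein of urothelium, had 151, 47.9 and 202 normalized reads in the TLS of mouse 6, mouse 20 and the mouse aged 25 weeks. In kidney it had 5.30, 8.43, 0 and 11.6. It had 1 read in the lymph node labelled young and 4 in an antibody-positive one, and none in the other 5. TLS lay above kidney in each mouse with both tissues, by 28.5-fold in mouse 6, 5.68-fold in mouse 20 and 17.4-fold in the mouse aged 25 weeks.

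Plet1, a surface protein of placenta and several epithelia, had 85.6, 42.4 and 75.2 normalized reads in the TLS of mouse 6, mouse 20 and the mouse aged 25 weeks. Its kidney levels were 6.19, 10.97, 0 and 25.5. The highest kidney library and the lowest TLS library were closer in ratio than for any other member, and the mean of TLS was 6.36-fold that of kidney. Within a mouse the difference was 13.8-fold in mouse 6, 3.87-fold in mouse 20 and 2.95-fold in the mouse aged 25 weeks. Without the kidney library of the mouse aged 32 weeks, which had no Plet1 read, the log2 difference between TLS and kidney was 2.24 in place of 2.82.

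Sprr2a2 and Vsig2 had no read in any kidney or lymph node library. Sprr2a2, a small proline-rich protein that is crosslinked into the envelope of barrier epithelia, had 46, 7 and 44 reads in the TLS of mouse 6, mouse 20 and the mouse aged 25 weeks. Vsig2, a membrane protein with immunoglobulin domains, had 16, 13 and 27. The mean normalized reads of TLS were at least 5.79-fold those of kidney for Sprr2a2 and at least 3.33-fold for Vsig2.

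The counts of Sprr2a2 are uncertain, because 92.8% of the 100-base stretches of its transcripts also occur in Sprr2a1 or Sprr2a3. For Krt5 this share was 2.38% (Krt6a and Gm5478), and it was 0 for the other 8 genes. Sprr2a1 had 6, 3 and 34 reads and Sprr2a3 10, 2 and 23 in the TLS of mouse 6, mouse 20 and the mouse aged 25 weeks, and neither had a read elsewhere. The sum of the 3 Sprr2a genes, which does not depend on how reads were split among them, was 52.6, 9.43 and 110 normalized reads in the same order. Sprr1a, the relative on the list of other genes described below, was not restricted to TLS, with 0 to 59.2 normalized reads in kidney.

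**Figure D1:**
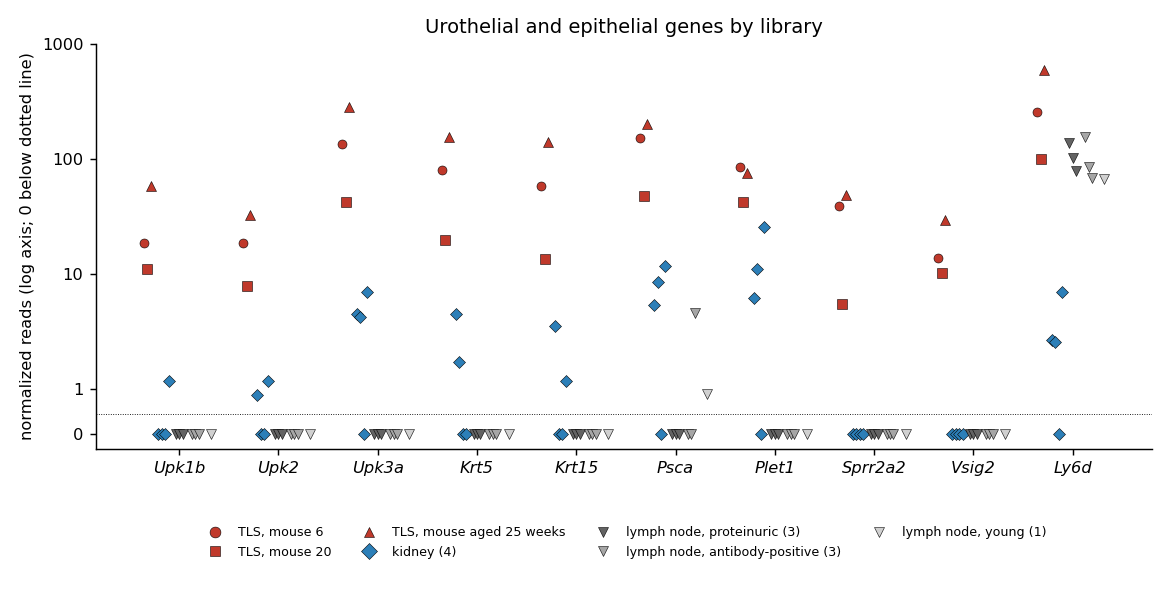
Normalized reads of the 10 genes in each of the 14 libraries (log axis, with libraries without a read drawn below the dotted line). Each symbol is 1 library. The 3 TLS libraries lie above the 4 kidney libraries for all 10 genes, and above the lymph node libraries for all but Ly6d.

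All 10 genes thus had every TLS library above every kidney library. Over all genes of the table, 9.35% had this order, and 12.9% had every TLS library above every lymph node library of proteinuric mice, as 9 of the members did. In the fit of all genes (limma, log2 of the value plus 1), the log2 difference of TLS minus kidney ran from 2.82 ± 0.61 (SE) for Plet1 to 5.72 ± 0.55 for Ly6d, with a median of 3.76. The median was 4.50 without the TLS of mouse 20 and 3.15 without the TLS of the mouse aged 25 weeks. The selection of the genes fixes these directions, and nothing is read from them.

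The 3 TLS libraries differed widely in their content of these genes. The 10 genes together held 0.254% of the reads of mouse 6 (95% Wilson interval 0.239% to 0.270%), 0.101% of mouse 20 (0.0914% to 0.112%) and 0.334% of the mouse aged 25 weeks (0.317% to 0.351%). The intervals, which cover counting error only, did not overlap. Ribosomal RNA took 1.91%, 1.77% and 21.3% of the reads of these libraries, in the same order. Of the reads outside ribosomal RNA, the members held 0.259%, 0.103% and 0.424%. In kidney the share of all reads was 0.00895%, 0.00908%, 0 and 0.0128% in mouse 6, mouse 20 and the mice aged 32 and 25 weeks. By the floor of 3 reads, the count of 0 in the mouse aged 32 weeks allows a share of up to 0.000796% of all its reads. The upper Wilson limit was 0.00102%, or 0.00229% of its reads outside ribosomal RNA. Without Ly6d, 5 of the 7 lymph node libraries had no read of any of the other 9 genes, and the others had 1 and 4 reads, all of Psca.

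**Figure D2:**
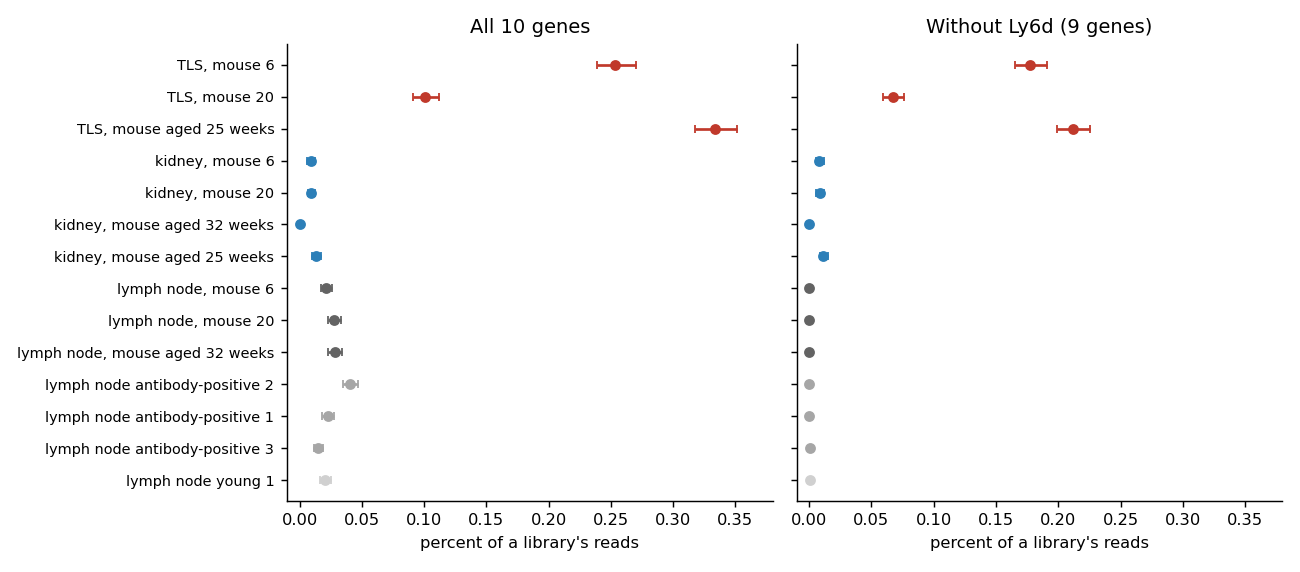
Share of each library's reads on the 10 genes (left) and on the 9 genes other than Ly6d (right), in percent. Points are libraries and bars are 95% Wilson intervals. The TLS libraries lie between 0.101% and 0.334% on the left, and lymph node is at or near 0 on the right.

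In 9 of the 10 genes, the normalized reads were highest in the TLS of the mouse aged 25 weeks, then mouse 6, then mouse 20. Plet1 was the exception, with mouse 6 highest. The library with most reads was above the lowest by 2.02-fold for Plet1, 2.88-fold for Vsig2, 6.65-fold for Upk3a, 7.94-fold for Krt5 and 10.5-fold for Krt15. With 3 libraries and 1 sample per mouse, the mouse, its age and the piece of tissue cut out cannot be told apart.

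The genes kept similar proportions to each other for some pairs and not for others. Krt5 took 37.3% of the reads of Krt5 plus Upk3a in the TLS of mouse 6 (95% Wilson interval 31.6% to 43.4%), 31.6% in mouse 20 (22.4% to 42.6%) and 35.6% in the mouse aged 25 weeks (31.0% to 40.4%). The basal and the umbrella-cell gene were therefore in proportions that did not differ beyond counting error, although their levels differed several-fold. Ly6d took 65.7%, 70.3% and 67.6% of its sum with Upk3a in mouse 6, mouse 20 and the mouse aged 25 weeks, again with overlapping intervals. Plet1 took 39.0% in mouse 6 (33.3% to 45.1%), 50.0% in mouse 20 (40.7% to 59.3%) and 21.0% in the mouse aged 25 weeks (17.0% to 25.8%). The interval of the mouse aged 25 weeks lay below both others. For Psca it lay below that of mouse 6 (41.7%, 37.2% to 46.3%, against 53.0%, 47.6% to 58.2%) and overlapped that of mouse 20 (53.0%, 44.0% to 61.9%). In kidney Plet1 made up 58.3%, 72.2% and 78.6% of its sum with Upk3a in mouse 6, mouse 20 and the mouse aged 25 weeks, on 12 to 28 reads.

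**Figure D3:**
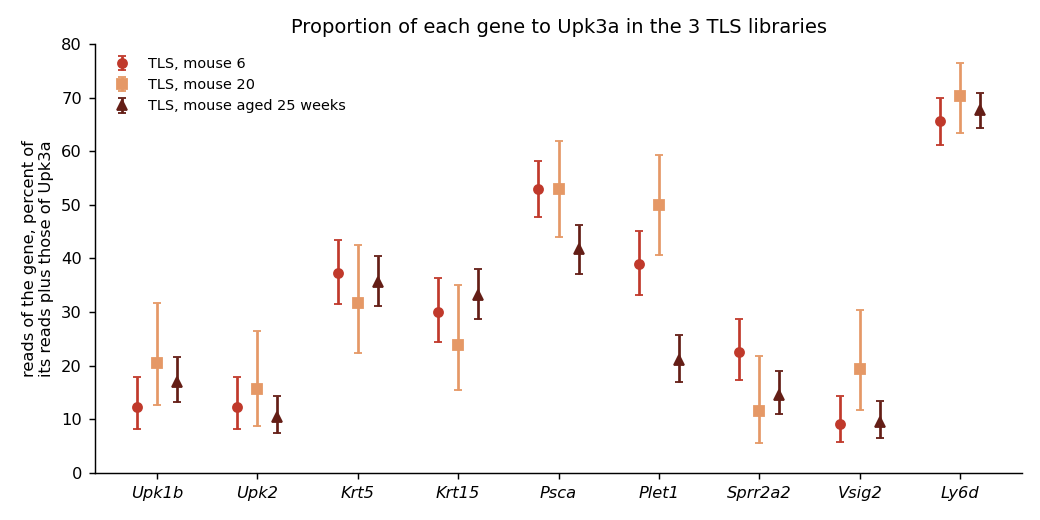
Reads of each gene as a percentage of its own reads plus those of Upk3a in the 3 TLS libraries, with 95% Wilson intervals. Krt5 and Ly6d keep overlapping intervals in the 3 libraries, whereas Plet1 is at 50.0% in mouse 20 and 21.0% in the mouse aged 25 weeks.

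Per length of exon, which allows levels of different genes to be compared, Ly6d was highest in TLS at 1039 ± 593 RPKM computed from the recovered reads (mean ± SD, n = 3), followed by Psca (398 ± 184) and Upk3a (343 ± 203). Krt15, Krt5 and Plet1 lay close together at 95.7 ± 69.6, 94.9 ± 59.5 and 94.6 ± 31.4. Upk2 (46.0 ± 19.6), Upk1b (33.8 ± 20.8), Sprr2a2 (26.8 ± 17.9) and Vsig2 (22.8 ± 7.05) were lowest. The value of Sprr2a2 depends on how reads were split with Sprr2a1 and Sprr2a3 and on an annotation that overlaps Sprr2a1. Its place in this order is therefore uncertain. The ranges of neighbours in this order over the 3 libraries overlapped except for Plet1 and Upk2, whose lowest and highest library were 73.2 and 62.5. Within each library, which holds all 10 genes, Ly6d ranked first. It had 1023 against 521.5 for Psca in mouse 6 and 454 against 187.2 for Psca in mouse 20. In the mouse aged 25 weeks it had 1640 against 534.4 for Upk3a.

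Ly6d differed from the other 9 genes in lymph node. It encodes a lipid-anchored surface protein known both from stratified epithelia and from cells of the B lineage. It had 256, 101 and 590 normalized reads in the TLS of mouse 6, mouse 20 and the mouse aged 25 weeks, and 136, 102 and 78.5 in the lymph nodes of mouse 6, mouse 20 and the mouse aged 32 weeks. In antibody-positive mice it ranged from 67.7 to 154 in lymph node, and it was 66.2 in the young mouse. The TLS of mouse 20 lay within the range of lymph node, so the groups overlapped, and the mean of TLS was 2.99-fold that of lymph node of proteinuric mice. Kidney had between 0 and 6.95 and lay below every lymph node library.

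Ly6d was set beside Cd79b, part of the B-cell antigen receptor. There were 1.65, 1.02 and 5.52 Ly6d reads per Cd79b read in the TLS of mouse 6, mouse 20 and the mouse aged 25 weeks, against 0.258 to 0.622 in the 7 lymph node libraries. All 3 TLS libraries lay above all lymph node libraries in this ratio, which was chosen after the values were seen. The lymph node of mouse 6 had the highest ratio among the lymph nodes. Across the 14 libraries, the Pearson correlation with the mean of the other members was 0.40 for Ly6d and between 0.85 (Plet1) and 0.99 (Upk2) for the other 9, a description in which the contrast of TLS with the rest takes the larger part.

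**Figure D4:**
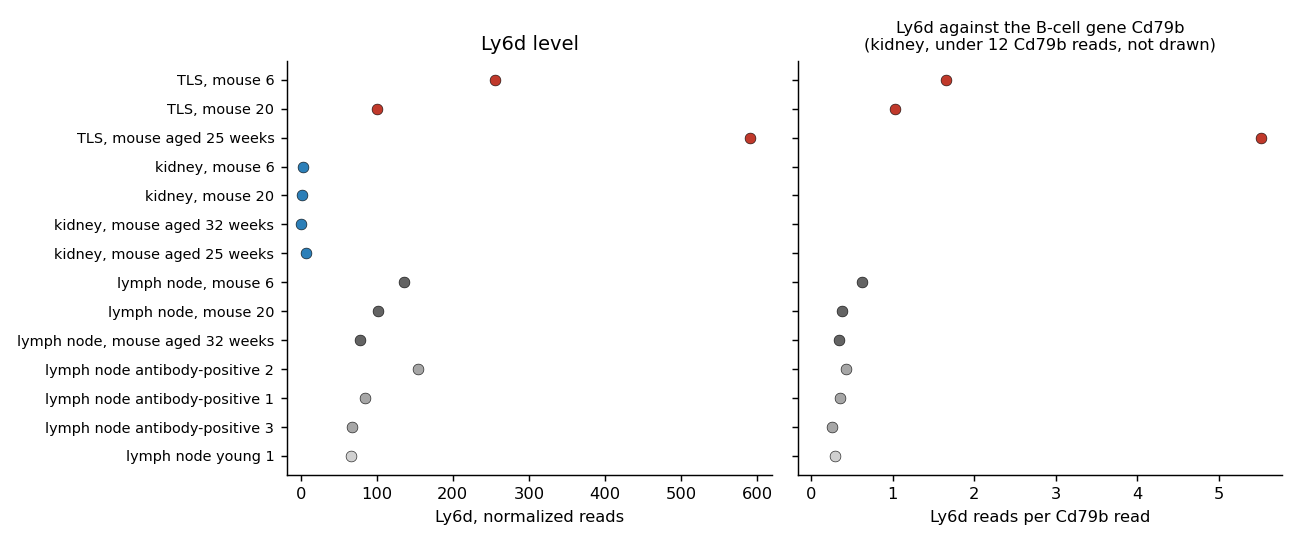
Ly6d in each library as normalized reads (left) and as reads per read of the B-cell gene Cd79b (right). Points are libraries. The TLS of mouse 20 is within the range of lymph node on the left, and the 3 TLS libraries lie from 1.02 to 5.52 on the right, above lymph node at 0.258 to 0.622.

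Among the other genes of the Ly6 family in the table, Ly6a, Ly6c1 and Ly6e had reads in every library of the 3 tissues, with means in TLS of 632 ± 151, 35.0 ± 8.95 and 263 ± 140 normalized reads and in kidney of 425 ± 124, 32.7 ± 9.98 and 103 ± 69.5. Ly6c2, Ly6i and Ly6k were, like Ly6d, near or at 0 in kidney (0.653 ± 0.843, 0 and 0.211 ± 0.422) and present in lymph node (47.4 ± 11.4, 12.3 ± 3.61 and 16.4 ± 10.9). Their means in TLS were 37.1 ± 20.6, 3.92 ± 4.28 and 13.3 ± 6.65, below those in lymph node, whereas the mean of Ly6d in TLS was above it. Ly6f was highest in kidney, at 6.70 ± 6.84.

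The members are a small part of what urothelium expresses, so a list of 59 other genes of urothelium and stratified epithelium was examined, of which the table holds 42. The list was set with earlier results of these data known. The fit of all genes tested 23 of them, those averaging 5 or more over the 10 libraries of the fit. A gene could pass by its TLS values alone, as Krt14, Krt17 and Krt19 did. Their mean normalized reads were 0.221, 0.211 and 3.61 in kidney, and they had no read in lymph node. They were also called with no filter, as given below, which is no separate evidence, since it uses the same TLS values. The shares of the 23 and the differences of these 3 keratins are therefore given as a description. Between TLS and kidney, 4 of the 23 were higher in TLS (17.4% of those tested, against 8.62% of all genes) and 2 were higher in kidney (8.70%, against 6.07%). The median log2 difference was 0.68 for the list and -0.01 for all genes tested. Without the kidney library of the mouse aged 32 weeks, 4 were higher in TLS and 1 lower, and without the TLS library of mouse 6 there were 3 calls in all.

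The genes called higher in TLS than in kidney were 3 keratins and Pparg. The 3 keratins reached the test through their TLS values, so no p is given for them. Krt14, the partner of Krt5 in basal cells, had 52, 10 and 72 reads in the TLS of mouse 6, mouse 20 and the mouse aged 25 weeks and 1 read in all kidney libraries together. Its log2 difference was 3.81 ± 0.61 (SE; limma), and the groups did not overlap. Krt19, a keratin found in all layers of urothelium, had 84, 34 and 130 reads in TLS and 8, 6, 0 and 2 in kidney of mouse 6, mouse 20 and the mice aged 32 and 25 weeks. Its log2 difference was 3.67 ± 0.52. Krt17, a keratin of basal and injured epithelium, had 36, 3 and 38 reads in TLS and 1 in kidney. Its log2 difference was 2.94 ± 0.73. In the TLS of mouse 20 it was at the floor, and it was no longer called without the TLS of mouse 6.

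Pparg is a nuclear receptor of urothelium and also of fat cells. It had 7, 12 and 5 reads in the TLS of mouse 6, mouse 20 and the mouse aged 25 weeks, none in kidney, and 7, 23 and 19 in the lymph nodes of mouse 6, mouse 20 and the mouse aged 32 weeks (log2 TLS minus kidney 2.03 ± 0.33, limma, adjusted p = 0.00163). Its highest TLS library, mouse 20, was the lowest one for all 10 members and was the only TLS library with reads of the fat genes Adipoq (18) and Ucp1 (90). Summed fat-cell genes reached 193 to 1945 normalized reads in lymph node of proteinuric mice. The part of fat in the values of Pparg was not tested.

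Itga6, an integrin that anchors basal cells and that many other cells express, fell by 1.17 ± 0.32 on the log2 scale in TLS against kidney (limma, adjusted p = 0.0283). Prom1, a membrane protein of tubular cells too, fell by 1.03 ± 0.28 (limma, adjusted p = 0.0271). Both calls were lost in 9 of 17 alternatives. With the mouse as a block the adjusted p of Itga6 was 0.059.

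Keratins of simple epithelium did not pass the test between TLS and kidney. Krt18 had a log2 difference of 2.48 ± 0.82 (limma, adjusted p = 0.0696), Krt7 of 0.96 ± 0.43 (limma, adjusted p = 0.16) and Krt8 of 0.68 ± 0.48 (limma, adjusted p = 0.391), and all 3 had reads in most kidney libraries. Krt18 passed without the TLS of mouse 20 (adjusted p = 0.0378) or without the kidney of mouse 6 (0.0247). Krt20, a keratin of umbrella cells, had 5, 6 and 0 reads in the TLS of mouse 6, mouse 20 and the mouse aged 25 weeks and 24, 34, 0 and 0 in kidney (log2 difference -0.89 ± 0.90, limma, adjusted p = 0.574). It thus had no read in the TLS library with most reads of the uroplakins. Sprr1a had a log2 difference of 2.16 ± 1.00 (limma, adjusted p = 0.186).

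Of the uroplakins outside the members, Upk1a had 12, 5 and 14 reads in TLS of mouse 6, mouse 20 and the mouse aged 25 weeks and 3 in kidney, and Upk3b 6, 3 and 2 reads in TLS and none in kidney. Both were under the mean value of 5 and were not tested. With no filter on low values, 10 of the 42 genes of the list were called higher in TLS than in kidney, where 4.77% of all 13982 genes were, and 2 lower, where 3.57% were. Upk1a and Upk3b were among the 10, with Krt14, Krt17, Krt19, Pparg, the transcription factor Gata3, the anchorage genes Lamb3 and Itgb4, and Anxa8. Gata3 is also a T-cell gene and had 4, 4 and 6 reads in TLS. Upk3b, Gata3, Lamb3 and Itgb4 had at most 6 reads in any TLS library. Their calls therefore rest on values near the floor of 3 reads.

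By role, the keratins other than Krt20 (6 tested) had 3 genes higher in TLS than in kidney, where 8.62% of all genes were, and none lower, where 6.07% were. These 3 were Krt14, Krt17 and Krt19, which passed the filter by their TLS values. The 9 genes of epithelial surface, junction and barrier, such as Epcam, Cdh1 and the claudins, had none higher and 1 lower. Anchorage and desmosome genes had none of 4 higher and 1 lower, transcription factors 1 of 2 higher, and umbrella-cell genes none of 2.

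Against lymph node, 16 of the 23 genes were higher in TLS, where 8.87% of all genes were, and none was lower, where 1.69% were (limma; 1 at an unadjusted p under 0.05, and 0 calls by edgeR and by DESeq2). Apart from Epcam, none of the 16 had a read in lymph node of proteinuric mice. These genes passed the filter by their TLS and kidney values, which largely fixed the direction. The count is therefore a description. With no filter on low values 1 gene, the desmosomal cadherin Dsc2, was called lower in TLS. These 6 keratins were among the 16, from Krt17 (log2 difference 3.13 ± 0.78) to Krt8 (6.03 ± 0.52), and none of the 6 had a read in any of the 7 lymph node libraries. With the mouse as a block, Krt17 (adjusted p = 0.0641) and Sprr1a (0.0856) were no longer called. Between kidney and lymph node, 15 genes were higher in kidney, where 23.0% of all genes were. Pparg, 1 gene, was higher in lymph node, where 20.8% were. Apart from Itga6, Jup and Epcam, these 15 also had no read in lymph node of proteinuric mice, so the same limit holds.

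**Figure D5:**
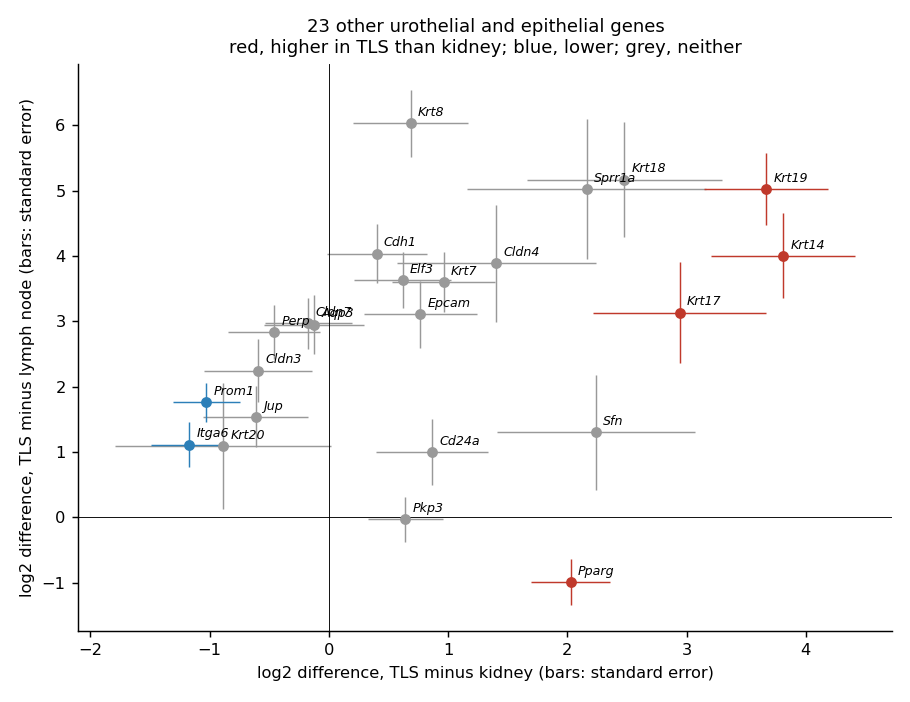
Log2 differences of the 23 tested genes of the list, TLS minus kidney (horizontal) and TLS minus lymph node (vertical), with standard errors. Both axes use the same TLS libraries. Krt14, Krt17, Krt19 and Pparg (red) are higher in TLS than in kidney, Itga6 and Prom1 (blue) are lower, and Krt8 lies at 0.68 against kidney and 6.03 against lymph node.

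Genes of other cell types were measured beside these. Summed normalized reads of the proximal tubule list (7 of 7 genes in the table) were 886, 3691 and 6343 in the TLS of mouse 6, mouse 20 and the mouse aged 25 weeks and between 5544 and 15784 in kidney, and 4 of 7 genes were lower in TLS, where 6.07% of all genes were. This was not the order of the TLS libraries in the members. The collecting duct list (10 of 11 genes in the table) summed to 197, 121 and 104 in TLS and 116.7 to 248 in kidney, and the thick ascending limb list (6 of 6) to 745, 628 and 1419 in TLS and 808 to 3259 in kidney. Of the collecting duct list 5 genes and of the thick ascending limb list 4 were tested between TLS and kidney, and none was called. All 3 tubule lists were at or near 0 in lymph node.

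Smooth muscle genes (7 of 7 in the table) summed to between 143 and 181 in TLS and between 23.1 and 355 in kidney, and fibroblast genes (6 of 6) to between 197 and 225 in TLS and between 10.6 and 173 in kidney, with 1 of 6 fibroblast genes called higher in TLS. Fat-cell genes (6 of 6) summed to 388 in the TLS of mouse 20 and to 44.9 and 44.7 in mouse 6 and the mouse aged 25 weeks, where 1 gene alone, Fabp4, had reads. The lists of epidermis and thymic epithelium, other sources of Krt5 and Krt14, had 1 of 6 and 1 of 5 genes in the table, Sbsn and Ccl25, without a read in any library. B-cell genes (5 of 5) summed to between 314 and 443 in TLS, 0 to 21.1 in kidney and 564 to 813 in lymph node of proteinuric mice, and T-cell genes (5 of 5) to between 94.9 and 156, 0 to 9.28 and 264 to 330. All 5 genes of each of these lists were higher in TLS than in kidney, where 8.62% of all genes were. The part of any of these cell types in the levels of the members was not tested.

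Genes whose pattern over the 14 libraries was most like the mean of the members were named by Pearson correlation of log2 values. In order they were Krt14 (0.98), Clca3a2 (0.97), Msln (0.97), Krt19 (0.96), Krt17 (0.95), Krt18 (0.84), Npy (0.83), Gsto1 (0.80), Nupr1 (0.79) and Cbr2 (0.79). These are descriptions, since the libraries share 3 tissues and the contrast of TLS with the rest sets most of each value. Clca3a2 had 14, 6 and 37 reads in the TLS of mouse 6, mouse 20 and the mouse aged 25 weeks and none in kidney. Msln, mesothelin, a surface protein of mesothelium, had 40, 6 and 28 reads in TLS and 1 in kidney. By rank correlation only 2 of these 10 were again among the 10 most alike, and over the 10 libraries of proteinuric mice 5 were.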

How the data were processed

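The data were 14 libraries of NZB/W mice, sequenced on an Ion Torrent PGM after poly(A) selection. CLC Genomics Workbench was used for mapping (GRCm38), and the submitters' processing notes also name BWA, HTSeq, edgeR and limma for the series without saying for which samples. The authors deposited a signal per gene and library. In 100% of the values this signal was a whole multiple of the lowest value of its library (tolerance 1e-06), and the multiples gave the size factors back, so the table holds reads plus 1, divided by the DESeq size factor. Reads were recovered by dividing and subtracting 1. Normalized reads are these reads divided by the size factor. The added read and the size factors are not given in the sources used here.

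The members and lists were chosen with earlier results of these data known. The genes named were the members, the called genes, uroplakins and keratins of the list, Sprr2 and Ly6 relatives, and the 10 genes most alike in pattern. Kidney, TLS and lymph node of proteinuric mice entered 1 fit of 10 libraries with limma 3.58.1 (trend, robust; R 4.3.3). Values were log2(value + 1) of the 7382 genes averaging 5 or more, and genes were called at a Benjamini-Hochberg adjusted p under 0.05. Fold changes on that scale understate the change of low genes, so folds of means are of normalized reads. A group at or under 3 reads in each of its libraries was set to that floor. Ratios and lower limits can therefore not be compared between genes. Alternatives were pseudocounts of 0.1 and 5, no filter and a mean of 10, edgeR 4.0.16 and DESeq2 1.42.0 on recovered reads, scaling to reads outside ribosomal RNA, the mouse as a block, and leaving out each library. The tests were tried on simulated data. Coordinates and exon lengths are of GENCODE M21 (GRCm38).

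Same-numbered libraries come from 1 animal. Their deviations from the tissue means correlated at 0.351, 0.364 and 0.454 between TLS and kidney, and between -0.335 and 0.202 in pairs with lymph node. TLS and kidney of different mice correlated between -0.498 and 0.361. The highest value of any pair, 0.512, was of different mice, kidney of the mouse aged 32 weeks and lymph node of mouse 6. The 15 whole-kidney samples were not analysed here.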

Additional observations from a re-analysis of the deposited data

Results flagged for a closer look

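Only kidney had enough libraries (4) for a check of single libraries that stand apart from their group, and 32 sets of values were checked. A set with reads in 1 library only is always picked out, and a set without a read never is. No rate by chance is therefore given. In 5 sets a library stood apart. For Upk1b, Krt14 and Krt17 it was a single read in 1 kidney library, worth 1.16, 0.884 and 0.844 normalized reads, with none in the other 3. Krt7 was low in the kidney library of the mouse aged 32 weeks at 3.55 normalized reads, the library with fewest reads outside ribosomal RNA. The summed thick ascending limb genes were high in 1 kidney library at 3259 normalized reads.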

How the results depend on the processing

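None of the genes of the list followed through the alternatives (Krt7, Krt8, Krt14, Krt17, Krt18, Krt19, Krt20, Sprr1a, Pparg, Itga6 and Prom1) changed direction. The members were followed only through the pseudocounts and the TLS and kidney libraries left out. Their direction did not change there, but their selection had fixed it. The other genes named were not followed. Between TLS and kidney, the 6 calls of the list became 12 with no filter on low values and 2 with a mean of at least 10, by the smaller or larger set of genes tested, and ranged from 3 (without the TLS of mouse 6) to 7 when a library was left out. Calls over all genes ranged from 530 (without the TLS of mouse 6) to 1344, and were 692 without the kidney of the mouse aged 25 weeks. Against lymph node, the 16 calls of the list became 27 with no filter and ranged from 13 to 17, and those over all genes ranged from 480 (without the lymph node of the mouse aged 32 weeks) to 977, with 481 without the TLS of the mouse aged 25 weeks. The cause of the changes with a library left out was not tested. The share of calls over all genes that were higher in TLS than in kidney was 58.7% with limma, 80.4% with TMM in edgeR and 68.8% with DESeq2. Against lymph node it was 84.0% with limma, 95.3% with TMM in edgeR and 95.9% when scaled to reads outside ribosomal RNA. Outside ribosomal RNA, the share of reads on the members in the TLS of the mouse aged 25 weeks was 0.424%. With the mouse as a replicate block, the list had 5 calls between TLS and kidney and 14 between TLS and lymph node, and apart from Itga6, Krt17 and Sprr1a no call of the list genes followed changed. At these depths, genes under about 3 reads could not be told from absent.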

Other observations

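The pattern of no read in 7 lymph node libraries, more than 3 reads in each TLS library and every TLS library above every kidney library was shown by 25 genes, 8 of them members and 3 from the list. The pattern was set after the values were seen, so its count is a description only. Among the others were the gasdermins Gsdmc2 (22, 15 and 19 reads in the TLS of mouse 6, mouse 20 and the mouse aged 25 weeks) and Gsdmc3 (13, 8 and 14), relatives of a pore-forming protein, and the calmodulin-like epithelial gene Calml3 (17, 4 and 24). The antibacterial lectin Reg3g had 11, 8 and 27 reads in the same order, the matrix protease Mmp7 had 9, 4 and 23, and the cytochrome Cyp2f2 had 8, 12 and 28. Slc14a2, a urea transporter of the inner medulla, had 25, 6 and 11. Sprr2a2, Vsig2, Clca3a2, Cyp2f2, Gsdmc3, Mmp7, Reg3g and Sptssb had no read in any kidney library either. Not all of the 25 were low in kidney. Scin had 40.1 to 43.25 normalized reads in TLS and 3.55 to 37.1 in kidney, and Tspan1 10.9 to 13.6 and 3.48 to 10.6.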
